A study of Homo sapiens with 6 samples.

Results

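RPMI-8402 is a human T-cell acute lymphoblastic leukaemia (T-ALL) line, and the data described here are its baseline transcriptome: the 3 libraries of cells given only the solvent DMSO, of 6 samples in the series. The cells carried Cas9 stably and were harvested after 72 h. The titles of all 6 samples begin with the letters DKO, which the titles do not spell out. The genotype label of these 3 samples is control. In the other 3 samples doxycycline was given to switch on guide RNAs against MYC, and the genotype label there names MYCN; those samples are not compared here. The labels do not say whether the line was 1 clone, nor that the 3 libraries came from separate cultures, so the spread between them may be technical. All 63677 gene rows of the count table were described. The libraries are called DMSO 11, DMSO 23 and DMSO 35 after the numbers in the column names, and wherever 3 values follow each other they stand in that order.

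Early T-cell precursors enter the thymus, lose the progenitor marker CD34, rearrange their receptor genes with RAG1, RAG2 and the polymerase DNTT, and are steered by NOTCH1 signals and by the transcription factors TCF7, GATA3 and BCL11B. In T-ALL this course stops, usually with a transcription factor such as TAL1, LYL1, LMO1, LMO2 or a homeobox protein switched on out of place, with active NOTCH1 and MYC, and with the cell cycle brakes of the CDKN2A locus gone. TAL1 and LMO proteins work in 1 complex with E proteins, LDB1, GATA and RUNX factors. Rapidly dividing leukaemia cells draw on glucose, glutamine and serine for nucleotides, lipids and proteins.

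Each library held about the same depth, with 29204148, 29062611 and 28952786 counts in gene rows. Levels are given as CPM, counts scaled to a library total of 1000000, and 1 CPM was about 29 counts. A gene was called expressed at 1 CPM or more in each of the 3 libraries, not detected at 0 counts in all 3, and low otherwise. By that rule 12713 rows were expressed, 15862 were low and 35102 were not detected. Among the 52526 rows matched by Ensembl ID in GENCODE 29 the expressed share was 23.6%. A count of 0 allows up to 3 counts, or 0.103 to 0.104 CPM, per library, counting error only. Among 19376 protein-coding genes, 10944 (56.5%) were expressed, 4734 were low and 3698 were not detected. The counts of expressed list members below are to be read against that 56.5%. Of the protein-coding genes 8612 reached 10 CPM, 2166 reached 100 CPM and 45 reached 1000 CPM in every library. Genes of the mitochondrial genome (37 rows) were all at 0, so nothing can be said of them.

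DMSO 11 stood apart from the other 2 libraries. Over the 9327 genes that averaged 10 CPM or more, the root mean square difference of log2 CPM was 0.44 between DMSO 11 and DMSO 23, 0.42 between DMSO 11 and DMSO 35, and 0.17 between DMSO 23 and DMSO 35. DMSO 11 was the library farthest from the middle one for 5950 of these genes (63.8%), lowest for 3602 and highest for 2348. The biological coefficient of variation, edgeR's estimate of the spread beyond counting error, was 18.1% over the 3 libraries and 7.85% without DMSO 11. For genes between 100 and 1000 CPM the median coefficient of variation was 11.1%, and 4.92% over DMSO 23 and DMSO 35.

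**Figure D1:**
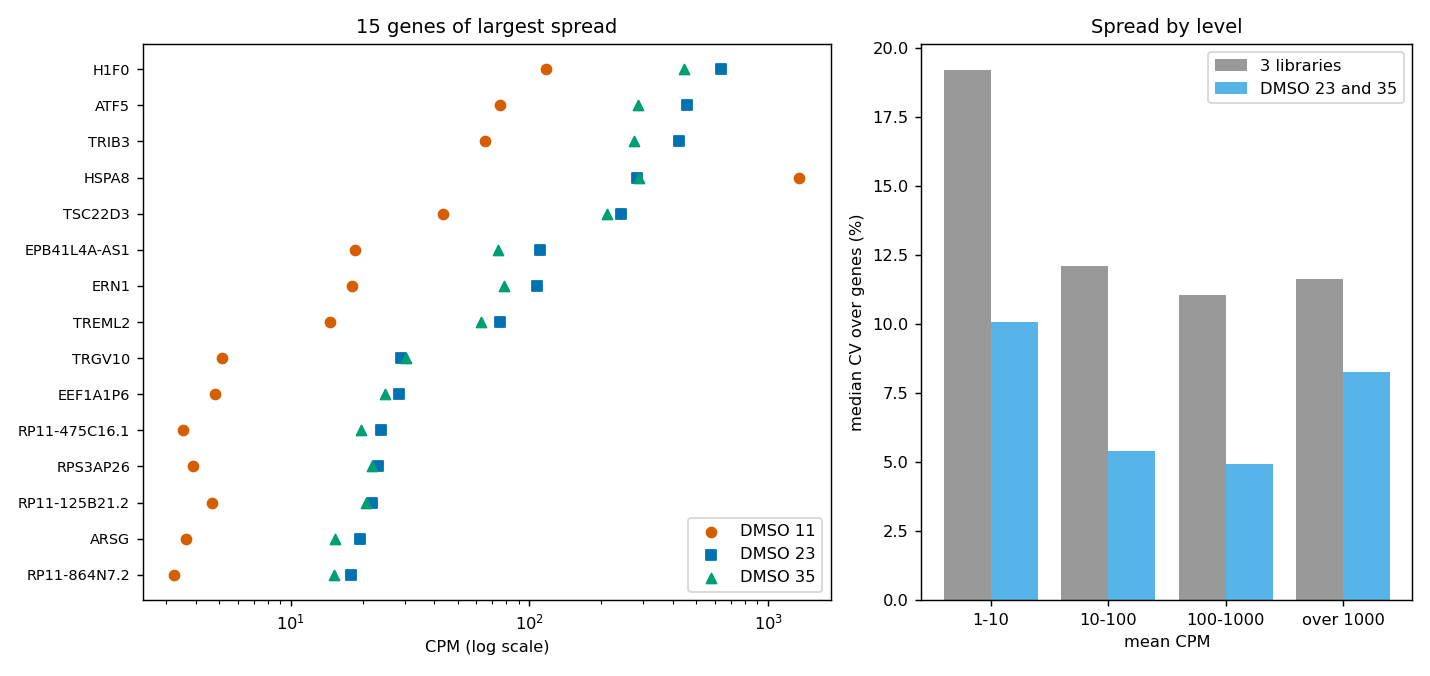
Left, CPM on a log axis of the 15 genes with the largest SD of log2 CPM among genes averaging 10 CPM or more, 1 point for each DMSO library. Right, the median coefficient of variation (CV, in %) over genes by mean CPM, for the 3 libraries (grey) and for DMSO 23 and DMSO 35 (blue). DMSO 11 was the lowest library for 14 of the 15 genes, and the spread was smaller without it at every level.

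Of the 15 genes of largest spread 4 are processed pseudogenes, among them RPS3AP26 and EEF1A1P6, whose counts can be mixed with those of their parent genes. TRIB3, a pseudokinase induced by the integrated stress response, stood at 65.2, 424 and 274 CPM. ATF5, a transcription factor of the same response, was at 75.2, 458 and 284 CPM. ERN1, which encodes the endoplasmic reticulum stress sensor IRE1, was at 18.1, 108 and 78.1 CPM. All 3 were lowest in DMSO 11 by several fold and highest in DMSO 23. TSC22D3, the glucocorticoid-induced leucine zipper, was at 43.6, 242 and 212 CPM and the linker histone gene H1F0 at 117, 636 and 444 CPM. The constitutive heat shock protein gene HSPA8 was the exception, at 1349, 281 and 287 CPM, high in DMSO 11 alone. What set DMSO 11 apart was not tested, and the 3 values of a gene are given below so that its part in each level can be seen.

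Protein synthesis genes led the ranking by level. EEF1A1, the elongation factor that brings aminoacyl-tRNA to the ribosome, led at 11718 ± 766 CPM (mean ± SD, n = 3), which was 1.17% ± 0.0766 of all counts. The 10 most abundant genes held 3.69% ± 0.319, the top 100 held 14.2% ± 1.04 and the top 1000 held 46.7% ± 1.4. Next in level were EEF2, the translocation factor, at 3299 ± 294 CPM and the cytoskeletal actin gene ACTB at 3247 ± 1459 CPM. ACTB had a wide spread, with 4931, 2361 and 2450.3 CPM in the 3 libraries. HNRNPA1, an RNA-binding protein of splicing, stood at 3192 ± 758 CPM, and GAPDH at 2837 ± 466 CPM. TUBB, a tubulin of the mitotic spindle, and PTMA, the small nuclear protein prothymosin, also ranked among the first 20, with 3720.4, 1129 and 1287 CPM and 3049.5, 1354 and 1433 CPM, both far higher in DMSO 11.

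All 76 ribosomal protein genes were expressed, and together they held 6.79% ± 0.629 of the counts, with 6.64% in DMSO 11, 7.49% in DMSO 23 and 6.26% in DMSO 35. Of the 20 genes highest in CPM 11 were ribosomal protein genes, and so were 11 of the 20 highest in CPM per kilobase of exon, the scale on which levels of different genes are compared here. The 2 sets shared 12 genes. Per kilobase the first ranks went to EEF1A1 at 1970.0 ± 129, RPS12 at 1369 ± 104, the iron storage gene FTL at 995 ± 175 and RPL13A at 968 ± 97.5 CPM per kilobase. RPS10 (3.08, 2.92 and 2.59 CPM) and RPL36A (10.3, 8.88 and 9.12 CPM) were low for ribosomal protein genes. Of the exon length of RPS10, 39.4% is shared with another gene of its strand in GENCODE 29, and of RPL36A 8.401%. Replication-dependent histones, whose messages carry no poly(A) tail, held 0.0082% of counts. The assay counts RNA and not protein.

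Messages of ribosomal proteins and elongation factors carry a known mark at their first base: a C followed by an unbroken run of pyrimidines, read by mTOR-controlled translation. The first letters of the 3 abundant translation genes above are shown for that tract, with FTL, near RPL13A in level per kilobase and below the other 2, as a gene without one. Each is 30 bases around the RefSeq start (GRCh38.p14), from 15 bases before it, with the tract from the start base in capitals. EEF1A1 is at chr6:73521018-73521047 on the minus strand, RPS12 at chr6:132814554-132814583 on the plus strand, RPL13A at chr19:49487593-49487622 on the plus strand, and FTL at chr19:48965294-48965323 on the plus strand.
EEF1A1: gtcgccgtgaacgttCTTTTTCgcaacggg
RPS12: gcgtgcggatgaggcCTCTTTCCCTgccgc
RPL13A: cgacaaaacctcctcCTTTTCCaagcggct
FTL: tagccacgtcccctcgcagttcggcggtcc
A C at the RefSeq start followed by at least 4 further C or T was found on the gene's strand in 4.65% of 13985 protein-coding promoters, in 5.65% of those of expressed genes, and in 2.84% of those of genes not detected. The share was 32.0% among the 50 protein-coding genes with a RefSeq window that averaged above 1000 CPM, and 67.7% (42 of 62) among ribosomal protein genes with a RefSeq window. A match describes these letters only, and RefSeq starts can be off by some bases.

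T receptor genes were abundant. Of the 25 T receptor and signalling genes 19 were expressed (76.0%, beside 56.5% of protein-coding genes). The kinase LCK, which starts T receptor signalling, stood at 683, 715 and 652 CPM. ZAP70, the kinase next in line, stood at 453, 408 and 397 CPM. The receptor subunits CD3E, CD3D, CD3G and CD247 (CD3 zeta) were all expressed. CD3E held 409, 414 and 402 CPM, with a coefficient of variation of 1.47%. CD3D was at 275, 409 and 326 CPM, with DMSO 23 highest. Per kilobase CD3D held 63.6% ± 4.7 of the CD3 sum, CD3E 25.6% ± 3.0, CD3G 7.36% ± 1.2 and CD247 3.42% ± 0.58. In bulk RNA, fewer cells of a type and less RNA per cell cannot be told apart.

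The receptor chains themselves were uneven. TRBC2, a constant region of the beta chain, stood at 655, 629 and 577 CPM, and TRBC1, the other one, had 0 counts in every library. TRAC, the alpha constant region, was at 1.54, 0.619 and 0.933 CPM. The gamma constant region TRGC2 stood at 24.7, 64.1 and 68.4 CPM and TRGC1 at 0.788, 3.2000 and 3.32 CPM, both lowest in DMSO 11. TRDC, the delta constant region, was at 1.44, 1.65 and 1.11 CPM. PTCRA, the surrogate alpha chain that pairs with beta before alpha is made, was at 5.24, 7.29 and 7.91 CPM. RNA of the beta constant region TRBC2 was thus abundant and that of the alpha constant region TRAC near 1 CPM. Whether this RNA came from rearranged receptor genes was not tested.

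Neither co-receptor was expressed: CD4 was at 0.274, 0.447 and 0.242 CPM, CD8A at 0.274, 0.585 and 0.587 CPM and CD8B had 1 count in all. Of the pan-T surface proteins, CD7 was at 100.3, 99.7 and 97.9 CPM, CD5 at 137, 157 and 152 CPM and CD28, the costimulator, at 92.97, 82.5 and 95.7 CPM. The adhesion receptor CD2 was low, with 18.8, 5.44 and 7.12 CPM, and its level in DMSO 11 lay well above the other 2. Downstream of the receptor, the adaptor LCP2 (SLP-76) stood at 164, 156 and 174 CPM and the kinase FYN at 122, 182 and 167 CPM. The membrane adaptor LAT was at 4.07, 3.92 and 4.87 CPM. For LAT 47.7% of the exon length is shared with another gene of the same strand, so its count may be incomplete.

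Stage markers were uneven in level. Of 23 thymocyte stage genes 13 were expressed (56.5%, the same as the share of all protein-coding genes). CD34, the progenitor marker, was the highest, at 1155, 773 and 877 CPM. DNTT, the polymerase that adds bases at receptor joints, stood at 483, 379 and 389.9 CPM. Both were highest in DMSO 11. The recombinase gene RAG1 was at 3.49, 2.68 and 2.901 CPM, and RAG2 had 5 counts over all libraries. CD1C, KIT and IL2RA (CD25) had 0 counts in every library, and CD1A had 3, 0 and 2. Among homing genes, CXCR4 stood at 295, 327 and 335 CPM. CD34 and DNTT were abundant, while no CD1 gene of the list was expressed. CD1D was the highest of the CD1 genes, at 0.719, 0.688 and 1.002 CPM.

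T lineage transcription factors were expressed in 19 of 26 cases (73.1%, beside 56.5% of protein-coding genes). TCF7, a NOTCH-induced factor that opens T-lineage genes, led at 1329, 1462 and 1579.7 CPM. Its relative LEF1 stood at 615, 900.4 and 945 CPM and ETS1 at 473, 615 and 595 CPM. All 3 were lowest in DMSO 11, as were 13 of the 19 expressed members, beside 51.6% of all expressed genes. BCL11B, which seals T-cell commitment, stood at 228, 241 and 268 CPM and GATA3 at 35.1, 47.7 and 53.02 CPM. The factors of mature subsets were near the limit: ZBTB16 (PLZF, of innate-like cells) had 7 counts over all libraries, ZBTB7B (ThPOK, of CD4 cells) had 8, and TBX21 (of type 1 helper cells) had 13.

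Markers of other blood and tissue cells were mostly low or not detected. None of 18 myeloid markers was expressed, and their summed level was 1.73 to 2.48 CPM, with ELANE, PRTN3, CEBPA and CD33 at 0. Of 16 B cell markers 6 were expressed. BLK, a B-lineage kinase also found in T precursors, was the highest at 71.4, 80.5 and 78.8 CPM. IGLL1 and VPREB1, the surrogate light chain genes, stood at 14.04, 11.4 and 10.8 CPM and 2.81, 2.37 and 2.59 CPM. The defining genes PAX5 (at most 0.447 CPM), EBF1 (1 count) and MS4A1 (0) were not expressed. Of 12 NK and cytotoxic markers 2 were expressed, NKG7 at 32.1, 43.5 and 37.99 CPM and NCAM1 at 4.11, 4.58 and 5.04 CPM, with no granzyme above 0.171 CPM. Of 16 erythroid and platelet markers only EPOR passed, at 11.4, 16.1 and 13.95 CPM, and the adult globin genes HBB and HBA2 were at 0.

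**Figure D2:**
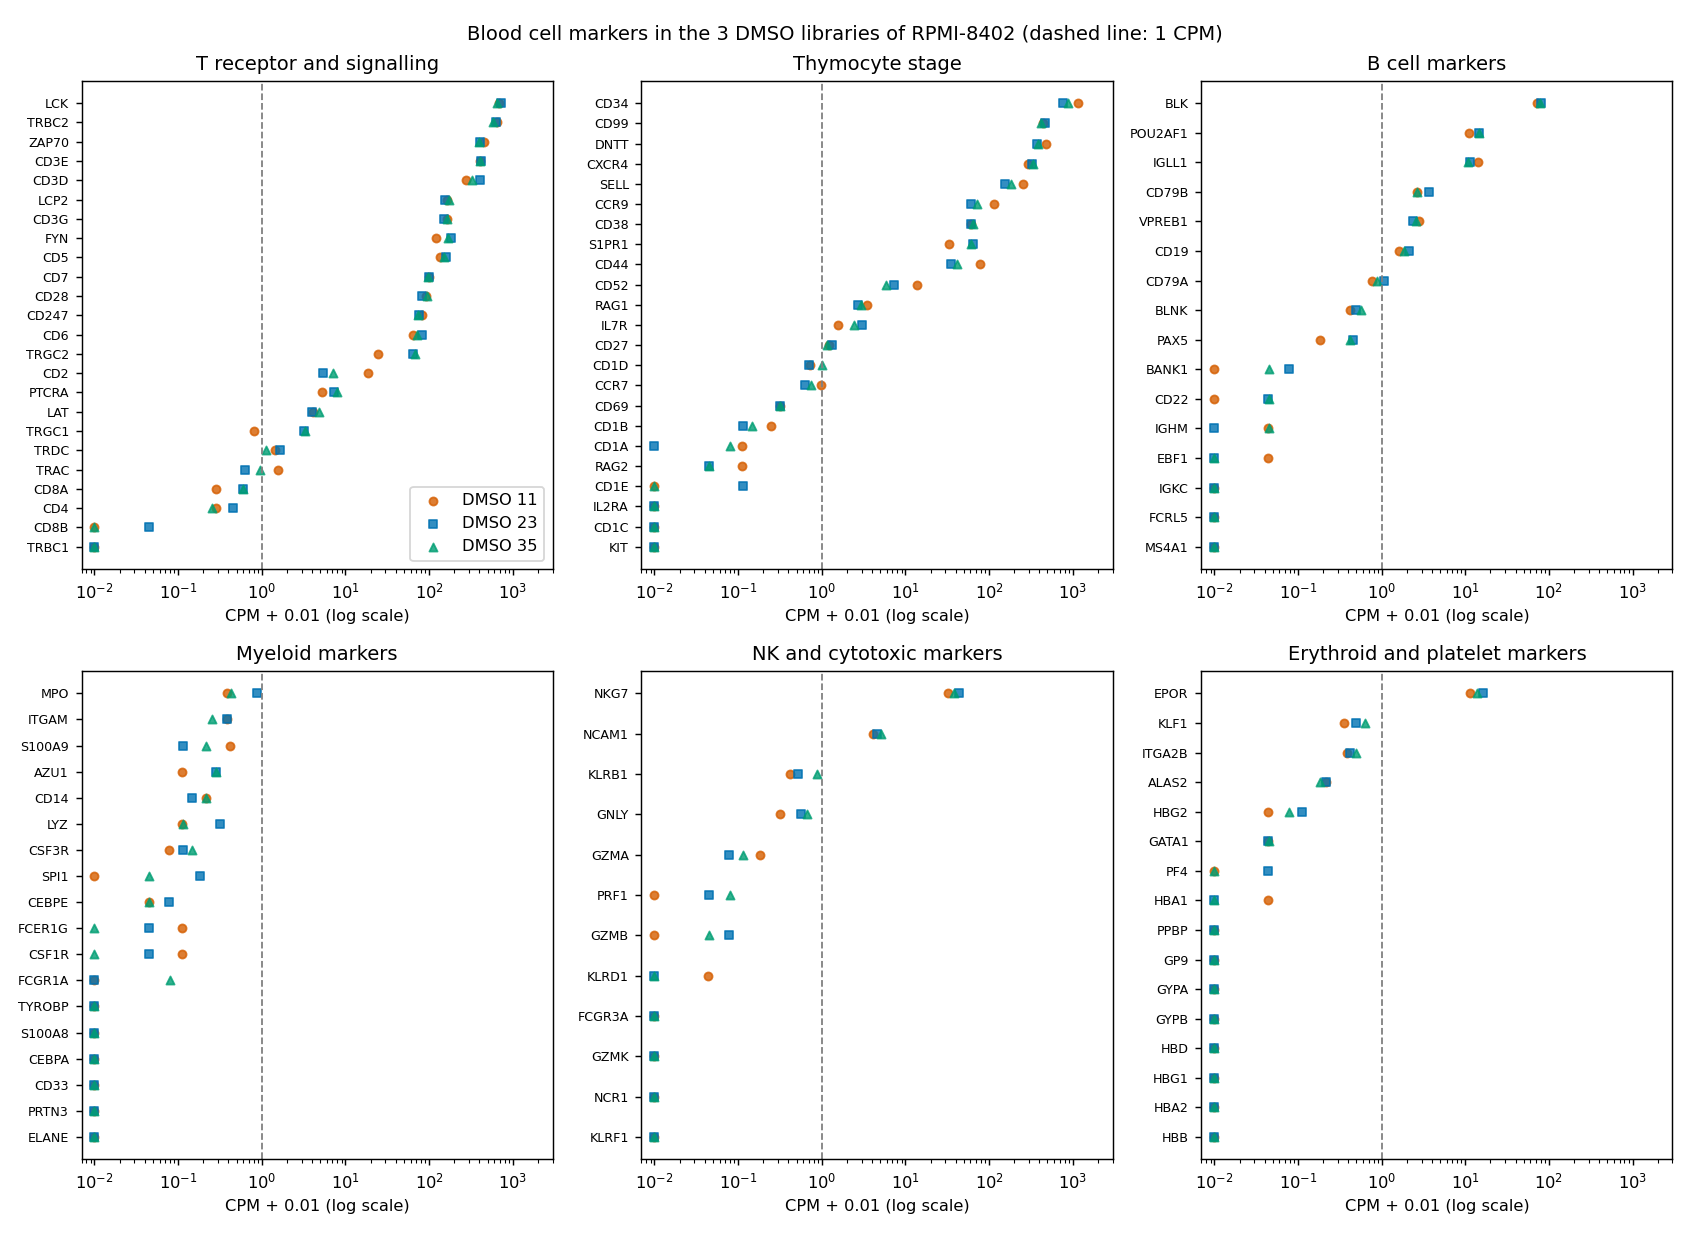
CPM + 0.01 on a log axis for the reported members of 6 marker lists, with 1 point for each DMSO library and a dashed line at 1 CPM; points at the left edge are at 0 counts. T receptor genes reach above 600 CPM in LCK and TRBC2, while no myeloid marker reaches 1 CPM.

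The cell type label is T-ALL. Of the 25 T receptor and signalling genes 19 were expressed, and LCK, CD3E, CD7 and TRBC2 were abundant in every library. Another 5 were low (CD4, CD8A, CD8B, TRAC and TRGC1), and TRBC1 was not detected. Among 14 stromal and endothelial markers 3 were expressed, none above 6.81 CPM, and among 15 epithelial, liver and neural markers 2 were expressed, MBP at 7.05, 7.398 and 9.19 CPM and SYP at 1.61, 2.44 and 1.66 CPM. MBP is also transcribed in lymphoid cells. B2M, the light chain of class I antigen presentation, stood at 356, 336 and 307 CPM. No HLA class II gene of the list exceeded 0.0685 CPM, and CIITA, their transactivator, was at 0.308, 0.551 and 0.414 CPM.

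Several genes of the oncogene list were expressed at once. Of 30 T-ALL oncogenes 17 were expressed (56.7%, the background being 56.5%). LMO1, the partner of TAL1 that was first found at a translocation of this line with a T receptor locus, stood at 149, 163 and 159 CPM, with a coefficient of variation of 4.7003%. Its relatives were near 0: LMO2 had 2 counts over all libraries and LMO3 had none. TAL1, the stem-cell leukaemia factor, stood at 86.9, 68.4 and 78.02 CPM and its relative LYL1 at 104, 129 and 115 CPM, while TAL2 was at 0.171, 0.138 and 0.518 CPM.

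MYC and MYCN were both expressed. MYC, which drives growth and ribosome production, stood at 267, 205 and 261 CPM and MYCN at 73.7, 111 and 88.8 CPM. MYC was lowest and MYCN highest in DMSO 23. MYCL, the third member, was at 4.69, 2.89 and 3.04 CPM. Per kilobase MYC held 69.3% ± 7.3 of the sum of the 3, MYCN 30.1% ± 7.4 and MYCL 0.596% ± 0.16. In the MYC network 12 of 13 genes were expressed. The partner MAX stood at 91.3, 133 and 125 CPM, and the largest of its antagonists were MGA at 113, 123 and 159 CPM and MNT at 35.6, 33.6 and 39.6 CPM. Of the MXD repressors MXD3 was at 32.6, 27.2 and 23.3, MXD1 at 10.03, 9.77 and 11.95, MXD4 at 8.97, 6.4000 and 6.04 and MXI1 at 14.3, 20.4 and 20.3 CPM. In the parallel branch that senses glucose, MLXIP (MondoA) stood at 251, 202 and 223 CPM and MLX at 75.7, 75.04 and 70.1 CPM, and MLXIPL (ChREBP) had 1 count.

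Homeobox oncogenes were divided. NKX2-1 stood at 54.1, 62.7 and 60.9 CPM. NKX2-5 and TLX3 had 0 counts, TLX1 was at 0.171, 0.619 and 0.449 CPM and NKX2-2 had 7 counts in all. Of the HOXA genes, HOXA10 was at 9.55, 11.1 and 9.19 CPM and HOXA5 at 5.41, 4.301 and 4.697 CPM, while HOXA9 had 12 counts in all and HOXA11 none. HOXA7 and HOXA13 stayed at or below 1.07 CPM. MEF2C, whose high level marks another T-ALL class, was at 7.84, 10.6 and 9.498 CPM, and the Polycomb gene BMI1 at 38.2, 58.1 and 56.8 CPM. WT1 was at 29.8, 40.8 and 42.9 CPM and ARID5B, a target of the TAL1 complex, at 63.3, 68.6 and 70.05 CPM.

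On the scale per kilobase MYB had the highest mean of the 17. Its range, 108 to 155 CPM per kilobase, lay above that of LMO1, 88.1 to 96.6. LMO1 and MYC overlapped in range and could not be ordered. NOTCH1 followed with 43.8 to 48.4, then LYL1 and MYCN, whose ranges overlapped. NKX2-1, TRIB2, TAL1, BMI1, WT1 and ARID5B formed a run in which every neighbour overlapped the next, from 19.8 down to 6.92 CPM per kilobase. HOXA5 and HOXA10 came below, and MEF2C and MYCL last. With the longest transcript as length, LYL1 moved above NOTCH1.

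**Figure D3:**
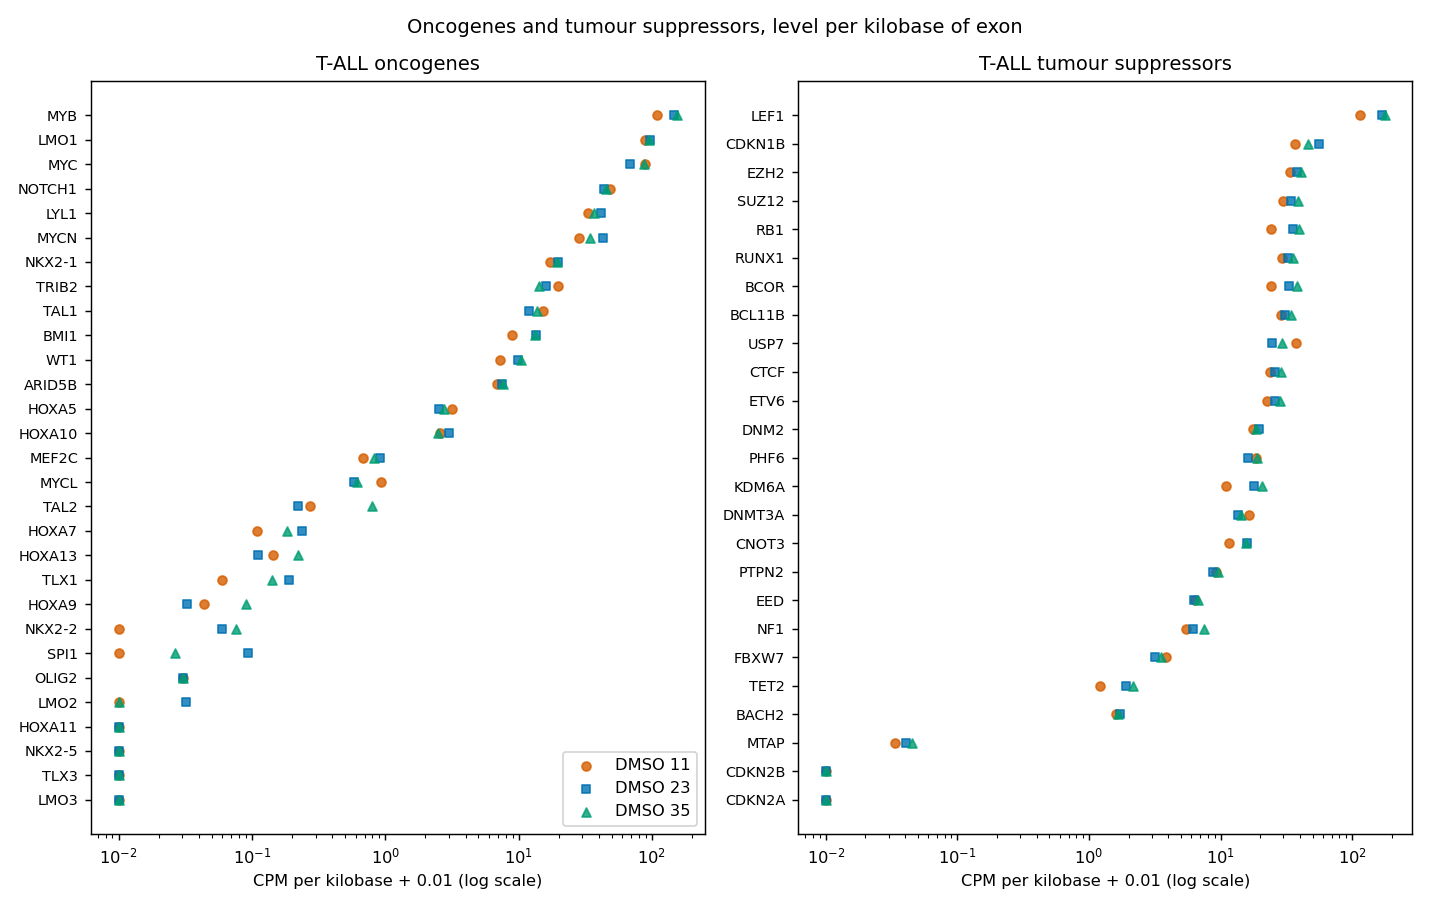
CPM per kilobase of exon + 0.01 on a log axis for T-ALL oncogenes (left) and T-ALL tumour suppressors (right) reported here, 1 point for each DMSO library. LMO1 lies above 88 while LMO2 and LMO3 are at or near 0 counts, and among suppressors MTAP, CDKN2A and CDKN2B stand alone at the low end.

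Genes of the TAL1 complex were expressed, with LMO1 as the LMO member. Of the 15 genes in the complex list 12 were expressed, each at 10 CPM or more. LDB1, the bridging protein, stood at 222, 227 and 220.2 CPM, and the E protein genes TCF3 and TCF12 at 421, 435 and 381 CPM and 133, 207 and 220.3 CPM. RUNX1 was at 459.8, 505 and 554 CPM and MYB at 595, 802 and 851 CPM. Of the GATA factors GATA2 stood at 102, 119 and 121 CPM, above GATA3, and GATA1 had 1 count per library. SSBP3, which stabilises LDB1, was at 282, 398 and 399 CPM, SSBP2 at 75.4, 114 and 110.1 CPM and SSBP4 at 70.6, 62.3 and 52.8 CPM. LDB2 had 2 counts in all. LMO1 and LMO2 differ in these libraries by far more than any spread, since LMO2 had at most 2 counts in a library and LMO1 at least 4349.

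Next came the neighbours of LMO1 on chromosome 11 and of TAL1 on chromosome 1. Directly beside LMO1, in the order of the reference annotation, RIC3 stood at 29.4, 25.05 and 23.6 CPM and STK33 at 6.51, 9.32 and 9.88 CPM. TUB was at 2.67, 2.65 and 2.31 CPM. Beside TAL1, STIL, a centriole gene, stood at 38.8, 41.5 and 46.6 CPM and PDZK1IP1 at 0.2397, 0.344 and 0.207 CPM, and the CYP4 genes beyond it were at or below 0.344 CPM. TAL1 thus lay between a low neighbour on one side and an expressed one on the other.

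Of 25 NOTCH receptor and machinery genes 18 were expressed (72.0%, beside 56.5% of protein-coding genes). NOTCH1 stood at 502, 454 and 468 CPM and NOTCH3 at 132, 192 and 167 CPM. Per kilobase NOTCH1 held 70.1% ± 4.7 of the receptor sum, NOTCH3 26.6% ± 4.5, NOTCH2 2.99% ± 0.027 and NOTCH4 0.264% ± 0.14. RBPJ, the DNA-binding partner, stood at 159, 142 and 168 CPM and APH1A, of gamma-secretase, at 227, 262 and 244 CPM. Ligands were nearly absent, with JAG2 at 0 and DLL3 and DLL4 at 2 counts each over all libraries. Of 16 NOTCH target genes 10 were expressed (62.5%), a share close to the 56.5% of all protein-coding genes. HES4 was at 222, 559 and 386 CPM, with DMSO 11 lowest, and HES1 at 122, 123 and 137 CPM. HES5 had 2 counts per library and HES2 had 0.

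Tumour suppressor genes were expressed in 24 of 27 cases (88.9%, beside 56.5% of protein-coding genes). RB1, which holds back entry into S phase, stood at 156, 227 and 253 CPM. The ubiquitin ligase gene FBXW7, which marks NOTCH1 and MYC for destruction, was at 42.8, 34.96 and 38.9 CPM. PHF6, an X-linked chromatin gene, stood at 149, 129 and 153 CPM and KDM6A, a histone demethylase gene, at 78.4, 128 and 148 CPM. The Polycomb genes EZH2, SUZ12 and EED were at 151, 171 and 184 CPM, 196, 226 and 252 CPM and 44.6, 43.9 and 46.8 CPM. LEF1 was the highest of the list. RNA level reports neither mutation nor protein: a gene with a damaging variant can be transcribed at these levels.

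The 3 that were not expressed sit together on chromosome 9. CDKN2A, which encodes the brakes p16INK4a and ARF, and CDKN2B, which encodes p15INK4b, had 0 counts in all 3 libraries. MTAP, the neighbouring gene of methionine salvage, had 10, 13 and 15 counts, or 0.342, 0.447 and 0.518 CPM. In the order of protein-coding genes no gene between KLHL9 (79.5, 87.3 and 103 CPM) and DMRTA1 (1.06, 1.17 and 1.21 CPM) was expressed. Between them lay 5 interferon alpha genes (IFNA6, IFNA13, IFNA2, IFNA8 and IFNA1), IFNE, MTAP, CDKN2A and CDKN2B, and all but MTAP had 0 counts. The antisense gene CDKN2B-AS1 was at 0 as well. Interferon genes are silent in most unstimulated cells. A count cannot tell a gene that is absent from the genome from one that is present and silent.

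The reference sequence before the CDKN2A start is shown because it is rich in CpG although the gene had no counts. That of IL2RA is shown because it is the other kind of promoter with no counts. Both are the 250 bases before the RefSeq start (GRCh38.p14), on the minus strand, with every CG in capitals. A single start per gene was used, so any other start of these genes is not covered. CDKN2A is at chr9:21995325-21995574 and IL2RA at chr10:6062368-6062617.
CDKN2A: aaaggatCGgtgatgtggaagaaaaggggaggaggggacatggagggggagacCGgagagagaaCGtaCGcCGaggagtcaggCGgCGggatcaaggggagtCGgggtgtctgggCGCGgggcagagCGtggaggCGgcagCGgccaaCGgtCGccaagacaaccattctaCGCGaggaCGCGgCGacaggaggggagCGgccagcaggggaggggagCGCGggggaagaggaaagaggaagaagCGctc
IL2RA: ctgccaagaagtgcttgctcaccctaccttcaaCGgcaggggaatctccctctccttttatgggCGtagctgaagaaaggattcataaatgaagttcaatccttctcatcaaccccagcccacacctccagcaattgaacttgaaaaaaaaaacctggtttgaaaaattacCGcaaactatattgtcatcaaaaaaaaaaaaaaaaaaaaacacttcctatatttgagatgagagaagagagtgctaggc
The CDKN2A stretch held 24 CpG and that of IL2RA 3. In the full 300-base window, which runs to 50 bases past the start, CDKN2A held 28 CpG with an observed to expected ratio of 1.13, and IL2RA 4 with a ratio of 0.32. The ratio is the number of CpG over that given by the C and G content, and is high in CpG islands.

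Over all promoters the level of a gene and the CpG ratio of its window went together. For 15322 genes with a RefSeq window the median ratio was 0.85 for expressed genes and 0.30 for genes not detected, a difference of 0.55. Within protein-coding genes the medians were 0.85 for expressed, 0.56 for low and 0.31 for not detected genes. From 0 counts upward the medians rose from 0.31 to 0.89 above 1000 CPM. TATAAA, searched on the gene's strand from 45 to 15 bases before the start, was found in 1.28% of promoters of expressed genes and 9.34% of those not detected. The E-box CACGTG, which reads the same on both strands and is bound by MYC and its relatives, was found in 10.5% of windows of expressed genes, 6.15% of those not detected and 8.89% of all. Among the 452 genes not detected whose CpG ratio was at least 0.75 the share was 9.73%, close to that of expressed genes. A CpG-rich window in the reference was no guarantee of counts: 452 of 2356 genes not detected had a ratio of at least 0.75, CDKN2A among them. Counts cannot tell whether CDKN2A is present in the genome of these cells. The promoter features are linked with each other and with gene class, so they are given as a description.

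**Figure D4:**
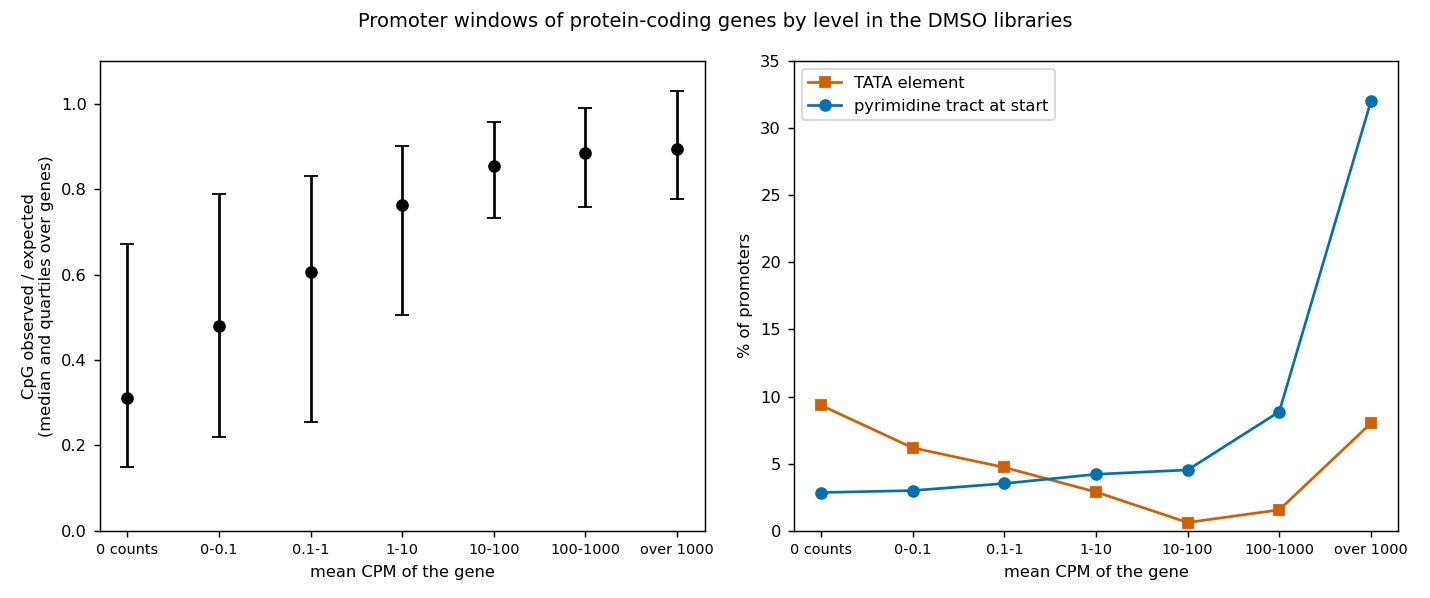
Left, the median and quartiles of the CpG observed to expected ratio over protein-coding promoters, by mean CPM of the gene. Right, the percentage of these promoters with a TATA element or with a pyrimidine tract at the start. The ratio climbs from 0.31 to 0.89 and the tract share reaches 32.0% above 1000 CPM, where 50 genes with a window stand, while the TATA share is lowest between 10 and 100 CPM.

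Cytokine and growth signalling genes were expressed in 24 of 31 and 28 of 30 cases. IL2RG, the common gamma chain, stood at 524, 638 and 567 CPM, with 50.8% of its exon length shared with another gene of its strand. STAT5A stood at 1079, 911 and 910.1 CPM and STAT5B at 365, 438 and 415 CPM, and STAT5A held 72.6% ± 3.7 of the pair per kilobase. The interleukin 7 receptor gene IL7R was only at 1.58, 3.06 and 2.45 CPM, and IL2RA and KIT were at 0. Of the PI3K catalytic subunits the leukocyte form PIK3CD held 44.9% ± 3.9 of the sum per kilobase, PIK3CA 24% ± 5.8, PIK3CB 21.5% ± 0.29 and PIK3CG 9.66% ± 2.7. AKT2 held 58.1% ± 3.2 of the AKT sum.

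All 20 proliferation genes were expressed. MCM7, of the replicative helicase, stood at 903, 842 and 934 CPM, the topoisomerase TOP2A at 939, 756 and 809 CPM and MKI67 at 679.6, 422 and 593 CPM. Of the 20 genes 16 were highest in DMSO 11 and 1 was lowest there, against 33.9% highest and 51.6% lowest of all expressed genes. RRM2, the S-phase subunit of ribonucleotide reductase, ranged widely at 298, 112 and 162 CPM. Of 27 cyclin and CDK inhibitor genes 19 were expressed (70.4%), and D cyclin RNA came almost wholly from CCND3. CCND3 held 99.7% ± 0.22 of the D cyclin sum per kilobase, with 576, 330.3 and 365 CPM, and CCND1 and CCND2 stood at or below 1.45 CPM. CDK6 was at 1018, 1360.2 and 1602 CPM and CDK4 at 253, 222 and 214 CPM. Per kilobase the pair was closer, with CDK6 at 59.4% ± 7.6 of the sum (51.0% to 65.9%) and CDK4 at 40.6% ± 7.6. Among inhibitors CDKN1B (p27) stood at 104, 159 and 129 CPM, CDKN1A (p21) at 0.2397, 0.929 and 0.173 CPM and CDKN1C at 0.

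MCL1 and BCL2L1 led the survival genes. Of 16 BCL2 family genes 13 were expressed. BCL2L1 (BCL-XL) held 50.4% ± 2.3 of the 5 survival genes per kilobase and MCL1 47.0% ± 2.0, while BCL2 held 1.70% ± 0.20. BCL2 itself was at 16.03, 14.4 and 16.9 CPM. The killer BH3 gene PMAIP1 (NOXA) stood at 77.3, 103 and 103 CPM and BAX at 88.7, 78.3 and 75.2 CPM. TERT, the telomerase catalytic subunit, was at 15.3, 6.64 and 7.91 CPM and DKC1, which stabilises its RNA, at 293, 259 and 278 CPM. The stem-cell factors NANOG and SOX2 had 1 and 11 counts in all.

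In glucose metabolism few isozymes held most of the RNA. Of 30 glycolysis genes 20 were expressed, and the list held 0.935% ± 0.174 of all counts. HK1 held 73.8% ± 1.5 of the hexokinase sum per kilobase and HK2 26.1% ± 1.5, with HK3 and HKDC1 near 0. ALDOA held 98.7% ± 0.19 of the aldolases, ENO1 82.5% ± 1.6 and ENO2 16.3% ± 1.2 of the enolases. Part of the exons of ALDOA (42.3%) is shared with another gene of its strand. LDHB, the form common in oxidative tissues, held 68.7% ± 1.4 of lactate dehydrogenase and LDHA 31.3% ± 1.4. In CPM the pair was close, with LDHA at 1009, 767 and 702 CPM and LDHB at 1119, 752 and 753 CPM. Phosphofructokinase was divided, with PFKP at 48.2% ± 1.9, PFKL at 28.0% ± 2.2 and PFKM at 23.8% ± 0.71. The main glucose carrier was SLC2A1 (GLUT1) at 43.2, 39.3 and 41.5 CPM, with SLC2A3 at 7.602, 5.06 and 4.52 CPM, and SLC2A2 and SLC2A5 at 0. For lactate export SLC16A1 held 97.0% ± 1.0 of the 3 carriers and SLC16A3 0.381% ± 0.16.

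Of the 20 expressed glycolysis genes 18 were highest in DMSO 11, beside 33.9% of all expressed genes. GAPDH led at 3371, 2520.0 and 2619 CPM, and the list took 1.14% of counts in DMSO 11 against 0.833% in DMSO 23 and 0.836% in DMSO 35. TXNIP, a brake on glucose uptake that glucose induces through MLXIP, went the other way, at 126, 403 and 372 CPM, and so did its relative ARRDC4 at 5.205, 16.5 and 18.3 CPM. Of the gluconeogenic genes PCK2, the mitochondrial form, stood at 62.7, 141 and 155 CPM, while PCK1, G6PC and FBP2 were at 0 and FBP1 had 1 count.

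**Figure D5:**
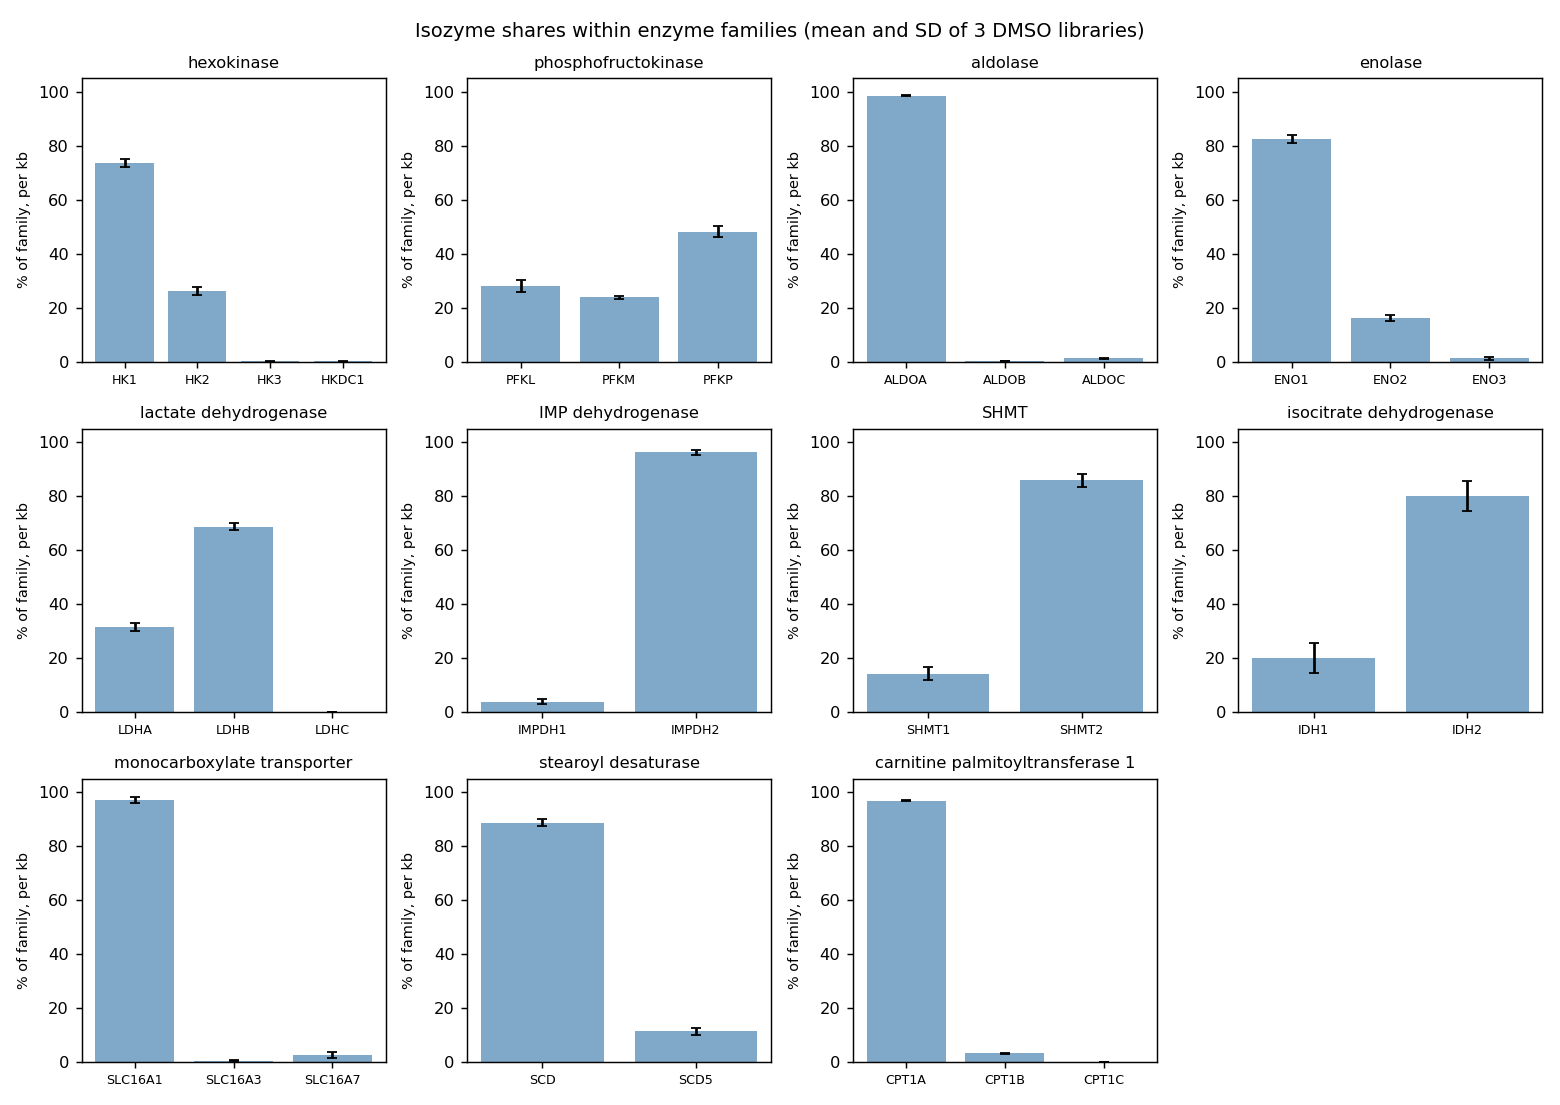
Bars give the share of each reported isozyme in the sum of its family on the scale of CPM per kilobase, in %, as the mean of 3 DMSO libraries with the SD as error bar. Aldolase, IMP dehydrogenase, monocarboxylate transporter and carnitine palmitoyltransferase 1 each have 1 member above 95%, while the phosphofructokinases are divided.

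The pentose phosphate and citrate cycle genes were expressed almost throughout, 8 of 9 and 29 of 31. TKT, of the non-oxidative branch, stood at 846, 859 and 808 CPM and PGD at 641, 439.8 and 453 CPM. CS, citrate synthase, stood at 342, 313 and 328 CPM. IDH2, the mitochondrial NADP form, held 80.1% ± 5.6 of the IDH1 and IDH2 sum. Of the kinases that shut pyruvate dehydrogenase, PDK2 held 52.2% ± 5.2, PDK3 34.4% ± 6.9 and PDK1 13.4% ± 1.9, none above 17.8 CPM, and PDK4 had 1 count in all. ATP5B, of ATP synthase, led the respiratory list at 1088, 1068 and 970.1 CPM. The tissue-specific subunits COX6A2, COX4I2, COX8C and COX7A1 were at 0.138 CPM or below.

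Amino acid supply was among the more abundant groups. Of 16 glutamine and glutamate genes 15 were expressed. SLC7A5, the carrier of large neutral amino acids, stood at 765, 937 and 969 CPM, its heavy chain SLC3A2 at 328, 622 and 591 CPM and SLC38A2 at 569, 665 and 735 CPM. GLUL, which makes glutamine, stood at 440.4, 435 and 409.7 CPM. ASNS, which makes asparagine and whose lack makes leukaemia cells sensitive to asparaginase, was at 12.3, 10.6 and 10.2 CPM. For ASNS 44.6% of the exon length is shared with another gene of its strand. SLC7A11, the cystine carrier, was at 23.1, 77.1 and 98.2 CPM, lowest in DMSO 11.

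The serine and one-carbon genes passed in 19 of 21 cases. PSAT1 stood at 423, 709.7 and 711 CPM and PHGDH, the first enzyme of serine synthesis, at 441, 543 and 552 CPM. MTHFD2, of mitochondrial folate, was at 339.6, 500.1 and 524 CPM, and SHMT2 held 85.9% ± 2.4 of the SHMT pair. These 4 were lowest in DMSO 11. GLDC, which breaks down glycine, was at 5.03, 2.13 and 2.56 CPM. Of 25 nucleotide synthesis genes 23 were expressed. ADA, the deaminase whose loss kills T precursors, stood at 674, 659 and 633 CPM, PAICS at 719.8, 579 and 649.8 CPM and IMPDH2, at 96.2% ± 0.96 of its family, at 583, 684 and 618 CPM. In the urea cycle ARG1 had 2 counts, OTC 8 and ASS1, the enzyme of arginine synthesis, 15 counts in all, of which 14 in DMSO 23. ODC1, the first enzyme of polyamine synthesis, stood at 486, 470.4 and 430.1 CPM.

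Lipid synthesis genes were expressed in 25 of 26 cases. SCD, the stearoyl desaturase, stood at 1007, 923 and 1074 CPM and held 88.7% ± 1.3 of its family, with SCD5 at 110.0, 101 and 94.2 CPM. FADS2, a desaturase of polyunsaturated fatty acids outside the lists, was higher still, at 1419, 1431 and 1627 CPM. FDFT1, which commits farnesyl units to sterols, stood at 629.6, 646 and 758 CPM and ACLY at 639, 447 and 491 CPM. FASN was at 556, 238 and 291 CPM and HMGCS1, of the mevalonate pathway, at 172, 64.9 and 98.1 CPM, both highest in DMSO 11. On the oxidation side CPT1A held 96.8% ± 0.15 of carnitine palmitoyltransferase 1, at 238, 248 and 269 CPM, and 17 of 21 genes were expressed. CD36 was at 0 and PPARGC1A at 0.205, 0.275 and 0.242 CPM.

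Stress response genes differed widely in level. Of 18 redox genes 16 were expressed, led by the catalase gene CAT at 534, 595 and 572 CPM, with HMOX1 at 0 in every library. PRDX1, a peroxiredoxin, was at 280.4, 71.6 and 62.9 CPM, far higher in DMSO 11. Of 15 hypoxia genes 11 were expressed. VEGFA stood at 149, 366 and 298 CPM, lowest in DMSO 11, and CA9 and ADM had 1 count each. HIF1A was at 77.1, 119 and 124 CPM and EPAS1 (HIF2A) at 0.0685, 0.275 and 0.207 CPM.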

How the data were processed

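RNA of 6 samples was sequenced from both fragment ends with strand kept, per the labels' protocols. The authors deposited a table of raw counts per Ensembl gene, whose unit was checked here: whole numbers with unequal totals. STAR 2.5.2a, featureCounts, DESeq2 1.12.4 and the build hg19 are named in the submitters' processing notes, with no role or order. For the counting, neither annotation release nor strand setting is given in the sources used here. Thus overlapping and antisense genes may not be told apart. Gene symbols were taken from the authors' deposited comparison table, whose statistics were not used. A count column was assigned to its group by name and to no numbered replicate.

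Only the 3 DMSO columns were used, and the 3 doxycycline columns were left out. The 92 spike-in rows, at 0 counts, were left out. CPM used the total of the gene rows with no further scaling, and log2 CPM a prior count of 2. Where a symbol had several Ensembl IDs, the ID with most counts was used. Exon length, gene type and gene order came from GENCODE 29, matched by Ensembl ID for 82.5% of rows, which held 99.1% of the counts. It is of another build than hg19. Promoter windows (300 bases) came from RefSeq, matched by Ensembl ID or, failing that, by symbol. They covered 72.2% of protein-coding genes, 77.2% of the expressed and 63.7% of those not detected. The dispersion came from edgeR 4.0.16 (R 4.3.3) with an intercept only, tested on simulated data. No test between groups was made and no p-value is given. Precision is set by 3 libraries. TMM and DESeq2 1.42.0 size factors, other thresholds and each library left out were tried. The longest transcript as length was tried only for the expressed T-ALL oncogenes. Shares within gene families rest on exon length alone, and their SD does not cover the choice of length.

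The members and lists were chosen with earlier results of these data known. Named are all members of the lists of T receptor genes, oncogenes, suppressors, the MYC network, the TAL1 complex and isozyme sets, except some that are counted in the lists but not reported here. From other lists up to 5 of the highest and 3 of the lowest members are named, and over all genes the 20 highest by CPM and by CPM per kilobase and the 15 of largest spread. Named after their values were seen were RAG1, RAG2, CD1A, PAX5, EBF1, CIITA, IL7R, TERT, SOX2, CDKN1A, FBP1, ASNS, SLC7A11, RRM2, FASN, HMGCS1, FADS2, PPARGC1A, COX4I2, COX7A1, PRDX1, RPS10, RPL36A, KLHL9, DMRTA1, IFNE, the interferon alpha genes, CDKN2B-AS1, the genes of the closing section and the promoters of CDKN2A and IL2RA.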

Additional observations from a re-analysis of the deposited data

How the results depend on the processing

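No paired analysis was possible because no test was made and the count columns carry none of the replicate numbers of the labels. The number of expressed genes, 12713, ranged from 10142 at a threshold of 5 CPM to 14016 at 0.5 CPM, and was 12738 with TMM and 12772 with DESeq2 size factors. List members expressed, 511 of 738, ranged from 472 to 525 over these thresholds, were 677 with any count at all, and were 511 under both scalings. Leaving out 15 members that share 40% or more of their exon length with another gene, an alternative added after seeing the data, left 502. TMM raised DMSO 11 by 0.06 in median log2 CPM, and no scaling changed the count of any list. The biological coefficient of variation, 18.1%, fell to 7.85% without DMSO 11 and was 22.5% without DMSO 35, so DMSO 11 decided this value. The share of counts in the top 100 genes was 14.2%, and 12.1% when genes were ranked by CPM per kilobase. The difference of median CpG ratio, 0.55, was 0.54 with protein-coding genes only, 0.56 at 5 CPM, and 0.54 to 0.55 without 1 library. With 29 counts per CPM, levels below about 1 CPM rest on few counts.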

Other observations

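Long non-coding RNA held 1.46% ± 0.279 of the counts, and 964 of 13098 such genes were expressed. FAM211A-AS1 was the highest, at 751, 1539.6 and 1044 CPM. Several of the next are hosts of small nucleolar RNAs. SNHG1 stood at 321, 1117 and 1059 CPM, GAS5 at 307, 866 and 655 CPM, SNHG8 at 187, 655 and 460.0 CPM and ZFAS1 at 131, 692 and 453 CPM. All 5 were lowest in DMSO 11 and, like TRIB3 and ATF5, highest in DMSO 23. The nuclear transcript NEAT1 was at 192, 262 and 277 CPM and TUG1 at 244, 257 and 286 CPM, with a narrower spread.

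DMSO 23 held 23 genes with at least 10 counts there and at most 2 counts in the other 2 libraries together, 370 counts or 12.7 CPM in sum. DMSO 11 had 1 such gene and DMSO 35 had 2. The genes in DMSO 23 included MUC17 with 35 counts, CEACAM5 with 33, KRT8 with 32, PIGR with 29, CEACAM6 with 24 and CDH1 with 15, which are genes of glandular epithelium. DMSO 35 had 1 count of MUC17, 2 of CEACAM5, 2 of KRT8, 2 of PIGR, 0 of CEACAM6 and 2 of CDH1, and DMSO 11 had 0 of each. The source of these counts was not tested. KRT18, the partner of KRT8, and KRT5 had 0 counts in every library. ASS1, named above, is one of the 23.

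Genes that lie almost wholly within another were rarely counted. Of 341 protein-coding genes with more than 90% of their exon length shared with a gene of the same strand, 19 were expressed (5.57%), against 56.1% of the 16209 with no such overlap. Smaller overlaps did not go with a low share: 73.6% of 1475 genes with up to 10% shared and 61.7% of 991 with 10% to 50% shared were expressed, and 35.6% of 360 with 50% to 90%. EEF1G, a subunit of the elongation complex of EEF1A1, shares 99.9% of its exons and had 2 counts in all, beside 434, 559 and 478 CPM for EEF1B2 of the same complex. EIF4A1, the translation helicase, shares 48.6% and was at 17.5, 12.3 and 14.2 CPM, against 508, 471 and 476 CPM for EIF4A2. SRXN1 (shared over 84.95%) and PIK3R2 (87.2%) were at 0 and at most 0.205 CPM. A low value of such a gene does not show that it was silent.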
